A study of Mus musculus with 4 samples.

Results

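Transcripts of 10 contractile genes of peritubular myoid cells were followed in mouse testis sections: Acta2, Myh11, Myl9, Mylk, Tpm1, Tpm2, Tagln, Cnn1, Des and Actg2. They were taken by name, as smooth muscle actin, myosin and tropomyosin genes with their thin filament and intermediate filament partners, and all 10 were found among the 28595 genes of the deposited count table. Libraries were made by photo-isolation chemistry, in which ultraviolet light uncages primers in a chosen area of a 10 µm section, and cDNA from outside that area does not enter the library. Wild-type mice and H3t KO mice, which lack a testis variant of histone H3, were each profiled with light on the entire section or with light on Leydig cells only. Each of these 4 groups had 3 libraries. The labels give no other allele, agent or treatment. Wild-type titles say young, no age is given for the knockout, and so age and genotype cannot be told apart. Whether the 3 libraries of a group are from different mice is not stated; the p-values therefore reflect the spread between these libraries only, and that spread may be technical.

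Peritubular myoid cells are flat, smooth-muscle-like cells that wrap each seminiferous tubule, and their contraction moves immotile sperm and fluid toward the rete testis. In smooth muscle, calcium bound to calmodulin activates myosin light chain kinase (Mylk), which phosphorylates the regulatory light chain (Myl9) and lets the myosin heavy chain (Myh11) pull on actin filaments (Acta2, Actg2) that carry tropomyosin (Tpm1, Tpm2) and the actin-binding proteins transgelin (Tagln) and calponin (Cnn1), while desmin (Des) forms intermediate filaments. Many of these genes are driven by serum response factor with myocardin-family partners, through the CArG box, which has 2 C, 6 A or T, and 2 G. The same genes are active in the smooth muscle of blood vessels, and Actg2 transcripts have also been described in male germ cells after meiosis.

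CArG boxes were looked for in the RefSeq promoters of the members (GRCm38.p6, 250 bases before to 50 bases after the start site), because a shared site is what links these genes in other smooth muscle. Promoters were matched for 7 of the 10 members; Myh11, Tagln and Actg2 are named only. The letters searched were CC, then 6 letters of A or T, then GG, which reads as the same pattern on both strands, and the same pattern with 1 of the 6 core letters changed to C or G. Only Acta2 and Myl9 held a match, and their 4 matches are shown 5′ to 3′ on the gene's strand, with the match in capitals and 10 bases on either side.
Acta2, chr19:34255438-34255467, minus strand, 84 bases before the start site: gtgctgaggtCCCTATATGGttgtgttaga
Acta2, chr19:34255388-34255417, minus strand, 34 bases before the start site: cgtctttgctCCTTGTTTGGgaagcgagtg
Myl9, chr2:156775293-156775322, plus strand, 161 bases before the start site: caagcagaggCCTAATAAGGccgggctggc
Myl9, chr2:156775355-156775384, plus strand, 99 bases before the start site: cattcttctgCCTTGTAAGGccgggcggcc
The 161-base match of Myl9 is an unchanged CArG box and the other 3 have 1 changed core letter. Among 27025 RefSeq promoters of the same length, 1.57% held an unchanged box and 10.0% held either form. The letters CATTCC, the core bound by TEAD factors, were found on 1 of the strands in Acta2, Mylk and Tpm1, and in 14.6% of all these promoters. Tpm2, Cnn1 and Des held none of these letters in this window. A match is a description of the letters and not a site shown to be bound. Both changed boxes of Acta2 lie within the bounds that GENCODE release 21 of the mouse annotation gives for this gene, which begin upstream of the RefSeq start site.

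Entire-section libraries held 247539 to 566527 counts each. Libraries lit at Leydig cells held 5947 to 54882, with wild-type Leydig library 3 the shallowest. At the depths of the entire sections 3 counts correspond to 5.30 to 12.1 CPM, and in the Leydig-targeted libraries to 54.7 to 504 CPM, which sets what can be seen there. CPM, a gene's counts per 1000000 counts of its library, is not divided by gene length, so levels are compared within a gene. The targeted gene, deposited as H3f4, had 1 count in all 12 libraries, in a wild-type section, which is too few to check the genotype labels. Spermatocyte and spermatid markers (14 genes such as Prm1 and Tnp1) summed to between 32662 and 59908 CPM in wild-type sections and to between 138 and 960 CPM in knockout sections, and 13 of the 13 tested were lower. Markers of Sertoli cells, of Leydig cells and of macrophages rose in the same sections, in 12 of 14, 10 of 10 and 8 of 8 tested genes. These are relative levels, which also rise where other transcripts are lost. In bulk sections such a loss, more cells of a type and more RNA per cell cannot be told apart.

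The first comparison asks how contractile transcripts differ between knockout and wild-type sections. Tpm1, Mylk and Myl9 rose in the knockout, by 2.67- to 3.51-fold in the scaled fit, and Actg2 fell, by 14.2-fold in pooled counts. Acta2 and Myh11, the actin and myosin heavy chain of the filaments, had higher CPM in the knockout but did not pass the test. The 10 genes together took 1218, 612 and 860 CPM in the wild-type libraries and 1934, 1905 and 2405 CPM in the knockout libraries. The lowest knockout library was above the highest wild-type library, and the ratio of the pooled counts was 2.24 (exact 95% interval 2.09 to 2.40, counting error only).

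**Figure D1:**
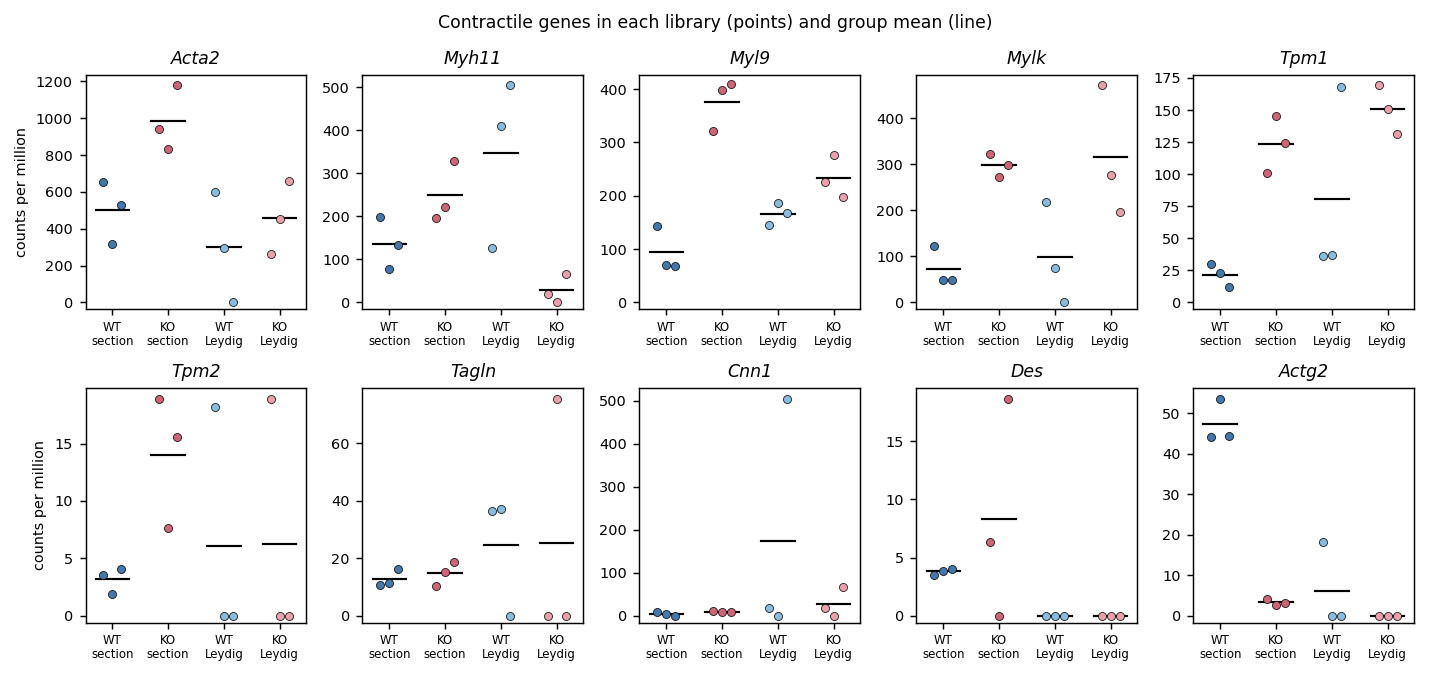
CPM (vertical axes, linear, a scale for each gene) of the 10 contractile genes in the 12 libraries, by group (WT wild type, KO H3t KO; section, light on the entire section; Leydig, light on Leydig cells only). Points are libraries and lines are group means. Myl9, Mylk and Tpm1 are higher in all 3 knockout sections than in any wild-type section, Actg2 is near 0 in the knockout sections, and Myh11 is at or near 0 in the knockout Leydig-targeted libraries; single counts set the level of the lower row in the Leydig-targeted libraries.

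Tpm1 (chromosome 9, 67022590 to 67049406, minus strand; positions are from GENCODE on GRCm38) encodes the tropomyosin that lies along actin filaments. It had 30.01, 23.0 and 12.1 CPM in wild-type sections, from 17, 12 and 3 counts, and 101, 145 and 124 CPM in knockout sections. The groups did not overlap. The log2 fold change was 1.81 ± 0.48 (SE, n = 3 libraries per group), with an adjusted p of 4.77e-04 in edgeR's quasi-likelihood test over 5182 genes. Tpm1 was under the 66.1 CPM of the expression filter in each wild-type section, and it passed only through knockout libraries, where it is high. With no filter its log2 fold change was 2.13 ± 0.50 (adjusted p = 1.93e-04 in the same test).

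Mylk (chromosome 16, 34745210 to 35002420, plus strand) encodes the kinase that switches the motor on. It had 122, 49.7 and 48.5 CPM in wild-type sections and 322, 273 and 298 CPM in knockout sections. All 3 knockout libraries lay above all 3 wild-type libraries. The log2 fold change was 1.44 ± 0.45 (adjusted p = 0.00344). Without wild-type section library 3 the adjusted p was 0.0516, so 1 library decides that call. Its substrate, the regulatory light chain Myl9 (chromosome 2, 156775420 to 156781658, plus strand), had 143, 70.8 and 68.7 CPM in wild-type sections and 322, 398 and 410 CPM in knockout sections. As for Mylk, wild-type library 1 was the highest of its group and all 3 knockout libraries lay above it. The log2 fold change of Myl9 was 1.41 ± 0.45 (adjusted p = 0.00356). Leaving out single libraries moved the value of Mylk between 1.25 and 2.28 and that of Myl9 between 1.26 and 2.115, in both cases highest without wild-type section library 1. The highest adjusted p of Myl9 in these fits was 0.0488, just under the threshold. With a minimum count of 3 and without wild-type section library 3, only 1 member was called higher.

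Acta2 (chromosome 19, 34241090 to 34255590, minus strand), the smooth muscle actin used as the usual marker of myoid cells, had 655, 318 and 529 CPM in wild-type sections and 944, 834 and 1178 CPM in knockout sections, again without overlap. After scaling, its log2 fold change was 0.43 ± 0.45 (adjusted p = 0.406), with an interval from -0.45 to 1.31. Myh11 (chromosome 16, 14194535 to 14291372, minus strand), the smooth muscle myosin heavy chain, had 198, 76.5 and 133 CPM in wild-type sections and 195, 222 and 329 CPM in knockout sections. These groups overlapped by 1 library, and the log2 fold change was 0.33 ± 0.44 (adjusted p = 0.520), with an interval from -0.52 to 1.19. Both intervals span 0, so neither a rise nor a fall of these 2 genes was resolved.

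Actg2 (chromosome 6, 83512905 to 83536265, minus strand), the gamma actin of enteric smooth muscle, went the other way. It had 44.1, 53.6 and 44.4 CPM in wild-type sections, from 25, 28 and 11 counts, and 4.20, 2.55 and 3.11 CPM in knockout sections, from 2, 1 and 1 counts. Every knockout library was at 2 counts or fewer, while no wild-type library was below 11. The pooled counts, 64 against 4, differ 14.2-fold (exact 95% interval 5.30 to 53.9). Actg2 had too few counts for the filter of the fit, with its minimum count of 10, and with a minimum count of 3 its log2 fold change was -4.27 ± 0.68 (adjusted p = 2.86e-09 over 10094 genes). It passed that lower filter through the wild-type sections alone, where it is high. With no filter the log2 fold change of Actg2 was -3.89 ± 0.70 (adjusted p = 4.03e-07 in edgeR's test). Its counts in knockout sections are near the floor of 3, so the fitted size depends on few reads. The germ cell markers above fell in the same libraries, and their part in the change of Actg2 was not tested. Of the 471 stretches of 30 bases in the last 500 bases of the Actg2 transcript, 2.76% are shared with the gene model Gm47940, and none are shared with Acta2 or another gene for the other 9 members.

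The other 4 members were scarce in sections of both genotypes. Tagln had 16 counts in the wild-type group and 17 in the knockout group (10.6 to 16.2 and 10.5 to 18.6 CPM), with a log2 fold change of -0.40 ± 0.64 (adjusted p = 0.622, minimum count 3). Tpm2, the second smooth muscle tropomyosin, had 2, 1 and 1 counts in the wild type, while the knockout libraries gave 9, 3 and 5. The Tpm2 ranges in CPM did not overlap, and without a filter its log2 fold change was 1.84 ± 0.83 (adjusted p = 0.0911). Cnn1 had 7 counts in the wild-type group and 11 in the knockout group, and Des had 5 and 9 in the same order, with overlapping libraries. For Cnn1 and Des no difference was detectable at this depth. Transgelin, calponin and desmin are among the defining proteins of differentiated smooth muscle, so 3 defining markers of the cell type had 5 to 17 counts per section group, beside 185 counts or more for Acta2 and Myh11. Tagln overlaps Pcsk7 and a second gene on the opposite strand, and Mylk overlaps 3 antisense genes, which had 10 counts or fewer each; whether counting used strand is not given in the sources at hand.

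Against this, 22.6% of the 5182 tested genes were called higher in knockout sections and 39.1% lower, and 36.7% of the 10094 genes tested with the minimum count of 3 were called lower. Of the members, 5 passed the filter, 3 of them were called higher and none lower, and their median log2 fold change was 1.41 beside a median of -0.35 over all tested genes. Those that passed were the 5 with the most counts, and Tpm1 passed only through knockout libraries, so nothing is read from that count about all 10.

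These fold changes depend on how the libraries are scaled. With library size alone the median of all genes moved to 0.23 and all 5 tested members were called higher, Acta2 by 0.98 (adjusted p = 0.0132) and Myh11 by 0.86 (adjusted p = 0.0441). With libraries scaled to the summed Sertoli markers the median moved to -1.54 and none of the 5 was called: Tpm1, Mylk and Myl9 had log2 fold changes of 0.66, 0.30 and 0.26 (adjusted p = 0.250, 0.594 and 0.633), and Acta2 and Myh11 turned negative, at -0.73 and -0.81. Actg2 was lower under all 3 scalings, from -3.63 to -5.32. Tagln was called lower with Sertoli scaling only, at -1.46 (adjusted p = 0.0498 in edgeR's test, minimum count 3). In that fit 5672 of 10094 genes were called lower. Relative to the median of all genes in the same fit, the values of the 3 scalings lay close together, at 2.16 to 2.20 for Tpm1, 0.75 to 0.80 for Acta2 and -3.82 to -3.86 for Actg2. A change of scaling moves all genes by nearly the same amount. This closeness therefore follows from the subtraction and does not show which scaling is right. Per 100 counts of the Sertoli markers, the members together had 15.7 ± 1.005 counts in wild-type sections and 11.1 ± 1.19 in knockout sections (SD, n = 3), a direction opposite to that in CPM.

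**Figure D2:**
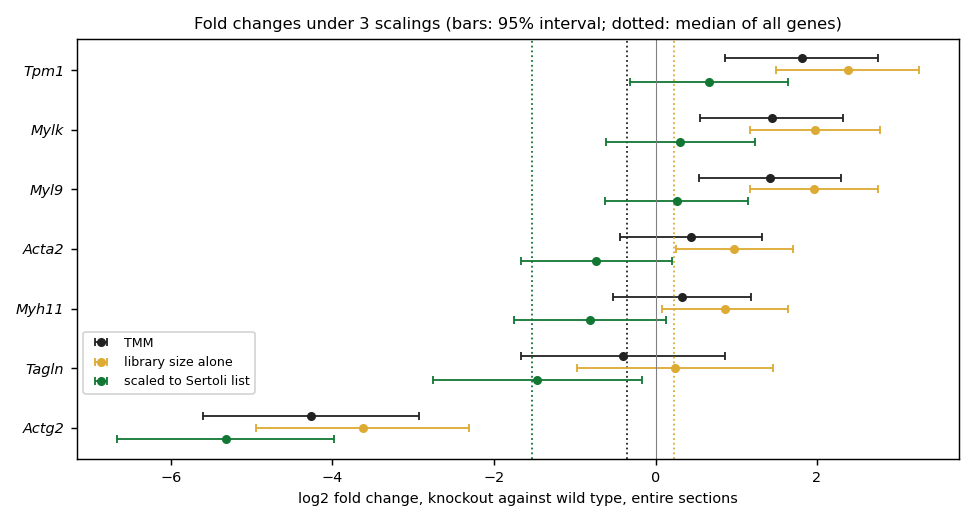
Log2 fold change of 7 members, knockout against wild type in entire sections (horizontal axis), under 3 ways of scaling libraries. Points are estimates, bars are 95% intervals from the SE, and dotted lines are the median of all tested genes in the fit of the same colour; Tagln and Actg2 come from the fit with a minimum count of 3. Acta2 and Myh11 change sign with Sertoli scaling, Tpm1, Mylk and Myl9 stay positive but are not called there, and Actg2 is lower under each.

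Shares between 2 members of the same library do not depend on that scaling, so each member was also set against Acta2 counts. Actg2 made up 6.31%, 14.4% and 7.75% of the counts of the 2 actins in wild-type sections and 0.443%, 0.305% and 0.263% in knockout sections. Mylk made up 12.5% ± 3.75 of Mylk plus Acta2 in wild-type sections and 23.4% ± 2.81 in knockout sections (SD, n = 3). Myl9 went from 15.9% ± 3.81 to 27.8% ± 3.86 and Tpm1 from 4.45% ± 2.25 to 11.3% ± 3.03 of their sums with Acta2. In these 4 shares no knockout library overlapped a wild-type library, and each exact permutation test gave p = 0.1 (two-sided), which is the smallest p that 3 against 3 libraries allow, and 0.222 after adjustment over 20 such tests. The share of Myh11 was 20.9% ± 2.005 in wild-type and 20.01% ± 2.50 in knockout sections (exact permutation p = 0.7). Per Acta2 count, the kinase, the light chain and tropomyosin thus had more counts in every knockout section, Actg2 had fewer, and the heavy chain differed by less than the spread between libraries.

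**Figure D3:**
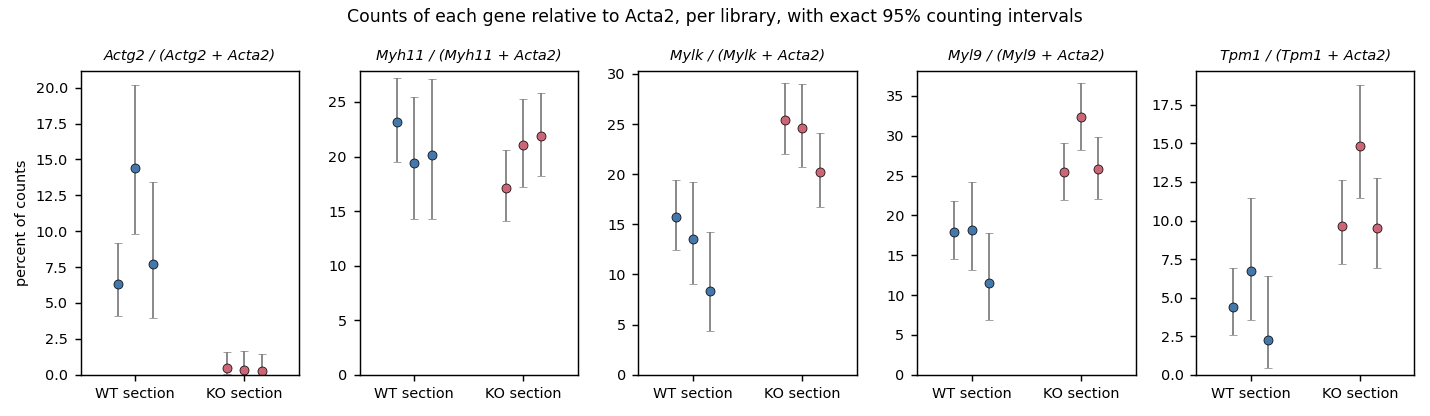
Share of each gene in its summed counts with Acta2 (percent, vertical axes from 0, a scale for each gene) in the 6 section libraries. Points are libraries and bars are exact 95% intervals for counting error. Knockout libraries lie below all wild-type libraries for Actg2 and above them for Mylk, Myl9 and Tpm1, and the genotypes overlap for Myh11.

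Other genes of the contractile pathway, in lists chosen by function, moved in both directions in the knockout sections. Of 12 tested genes that control smooth muscle tone, 6 rose and 3 fell (median 0.53). Ppp1r14a, an inhibitor of myosin light chain phosphatase, rose by 2.10 ± 0.49 (adjusted p = 6.17e-05). Oxtr, the oxytocin receptor through which oxytocin makes myoid cells contract, rose by 2.40 ± 0.60 (adjusted p = 1.60e-04), from 11 counts in the wild-type group to 87. With so few counts, Oxtr was under the 66.1 CPM of the expression filter in each wild-type section. It passed only through other libraries, where it is higher. With Sertoli scaling none of the 12 was called higher and 5 were called lower.

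Of 8 tested genes of the thin filament, dense body and adhesion machinery, 5 rose and none fell (median 1.23). Cnn3, the calponin of non-muscle cells, rose by 3.43 ± 0.58 (adjusted p = 1.20e-08), and Vim, the intermediate filament protein vimentin, by 2.20 ± 0.47 (adjusted p = 1.25e-05). Cald1, caldesmon, which binds actin and tropomyosin, rose by 1.45 ± 0.52 (adjusted p = 0.0112). Both Cnn3 and Vim are also expressed by Sertoli and other somatic cells. With Sertoli scaling 2 of the 8 were called higher.

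Among the paralogs that most cells use for their own cytoskeleton, 4 of 10 tested genes rose and 2 fell (median 0.85). The light chain genes Myl12a and Myl12b had log2 fold changes of 2.03 ± 0.46 and 2.18 ± 0.61 (adjusted p = 4.10e-05 and 8.13e-04), and the heavy chain gene Myh9 of 1.55 ± 0.50 (adjusted p = 0.00382). The second heavy chain gene, Myh10, fell, at -3.57 ± 0.55 (adjusted p = 4.92e-10), and so did Tmsb10, which binds actin monomers, at -3.04 ± 0.51 (adjusted p = 1.19e-08). Actb was at 0.81 ± 0.45 (adjusted p = 0.107), Tpm3 at 0.63 ± 0.45 (adjusted p = 0.216) and Myl6 at 0.89 ± 0.44 (adjusted p = 0.0686), so the non-muscle actin, tropomyosin and essential light chain did not pass. Actg1 had 16 counts in the wild-type group and 24 in the knockout group and was not tested. With Sertoli scaling none of the 10 was called higher and 3 were called lower.

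Of 7 tested genes known from myoid cells outside the contractile set, 5 rose and none fell (median 1.64). Cxcl12, a chemokine, rose by 3.21 ± 0.53 (adjusted p = 5.26e-09) and Ptch1, the hedgehog receptor, by 2.22 ± 0.51 (adjusted p = 4.66e-05). Nr2f2, a nuclear receptor, rose by 2.01 ± 0.51 (adjusted p = 2.22e-04), and Lamb1, a laminin chain of the basement membrane, by 1.64 ± 0.46 (adjusted p = 8.59e-04). Several of these are shared with Leydig and stromal cells. The list took 260 to 457 CPM in wild-type and 1162 to 1364 CPM in knockout sections. With Sertoli scaling 1 of the 7 was called higher.

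Of the regulators, Srf had 12 counts in the wild-type group and 5 in the knockout group, and Myocd had 2 in each, so serum response factor and myocardin themselves were not testable. Of the 2 regulators tested, Klf4, which represses smooth muscle genes in cultured cells, fell, at -2.15 ± 0.52 (adjusted p = 1.01e-04), and Mrtfb, a myocardin-family partner of serum response factor, was at 0.35 ± 0.43 (adjusted p = 0.483). The germ cell markers fell in the same sections, and their part in the fall of Klf4 was not tested.

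Vessel walls carry the same contractile genes, so 10 markers of pericytes and vascular smooth muscle were counted. They summed to between 20.2 and 72.4 CPM in wild-type sections and to between 82.0 and 106 CPM in knockout sections, 58 and 114 counts in all. The defining marker Rgs5 had 5 and 17 counts, Notch3 had 11 and 12, and Ndufa4l2 was at 0 in all libraries. None passed the filter, and their part in the members' values was not tested. The 14 endothelial markers took 91.8 to 162 and 187 to 209 CPM, with Ly6c1 alone tested and not called (adjusted p = 0.239). Of 11 tested stromal genes 4 rose and 1 fell, and the list went from between 1934 and 3258 to between 8109 and 8534 CPM. None of 10 striated muscle genes passed the filter, and the striated actin Actc1 had 1 count in all section libraries.

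**Figure D4:**
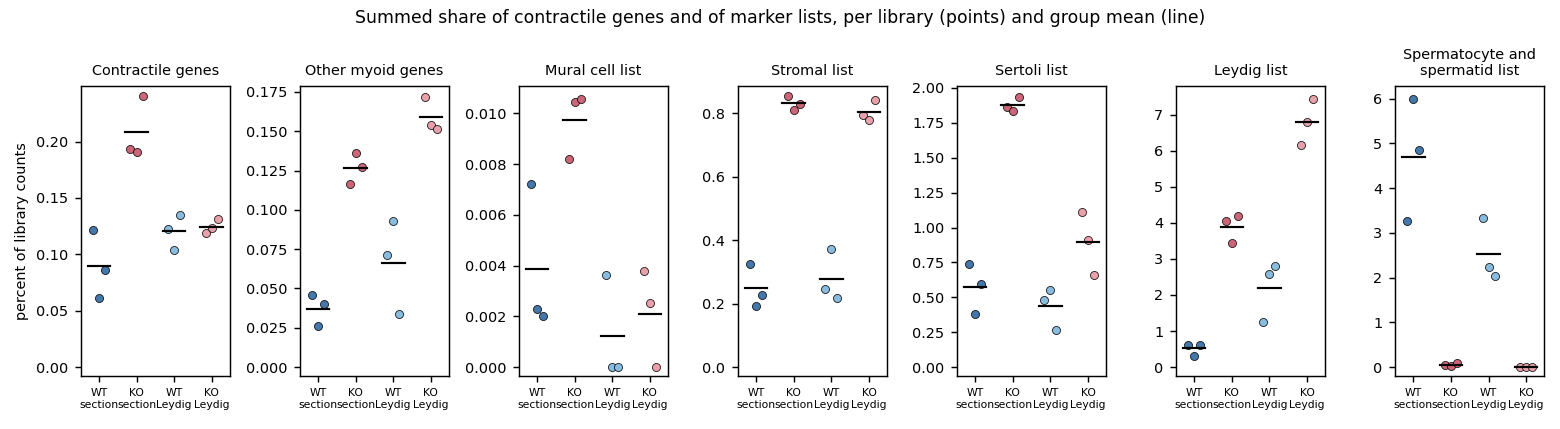
Summed counts of the 10 contractile genes and of 6 marker lists as a percent of each library's counts (vertical axes from 0, a scale for each list), by group (WT wild type, KO H3t KO; section or Leydig-targeted light). Points are libraries and lines are group means. The contractile, myoid, mural, stromal, Sertoli and Leydig lists are all higher in knockout than in wild-type sections while the spermatocyte and spermatid list is near 0 in both knockout groups; these are shares of a library, and with Sertoli scaling none of the 5 tested contractile genes is called higher.

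The second comparison asks whether the genotypes differ when only Leydig cells were lit. The members together took 1221, 1043 and 1345 CPM in wild-type and 1189, 1235 and 1315 CPM in knockout libraries, from 103 and 132 counts. These ranges overlapped, with a pooled ratio of 1.04 (exact 95% interval 0.799 to 1.36) that includes no change. Of the 5 tested members none was called higher and 1, Myh11, was called lower, beside 7.55% of all tested genes called higher and 20.9% called lower. Smooth muscle transcripts were thus counted in both genotypes under Leydig light, and the Leydig markers took 12445 to 27913 CPM in wild-type and 61563 to 74434 CPM in knockout libraries.

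Myh11 had 7, 11 and 3 counts in the wild-type Leydig-targeted libraries and 1, 0 and 1 in the knockout libraries. In CPM this was 128, 410 and 504 against 18.9, 0 and 65.8, with no overlap, although the 3 counts of wild-type library 3 are at the floor. The pooled counts differ 12.9-fold (exact 95% interval 3.16 to 114). The log2 fold change was -3.90 ± 1.03 (adjusted p = 0.00166), and with no filter on low counts it was -3.27 and not called (adjusted p = 0.0664). Leaving out single libraries kept the call, with log2 fold changes from -5.02 without knockout Leydig library 3 to -3.175 without knockout Leydig library 2. It was -4.64 without wild-type Leydig library 1, and the highest adjusted p was 0.0242, without wild-type Leydig library 2. In the fit with a minimum count of 3 no member was called without wild-type or knockout Leydig library 2. In the same knockout libraries Acta2 had 14, 18 and 10 counts, so Myh11 made up 6.67%, 0% and 9.09% of the counts of the 2 genes. In wild-type libraries, where Acta2 had 33, 8 and 0 counts, the share of Myh11 was 17.5%, 57.9% and 100%, above the knockout libraries in each (exact permutation p = 0.1, two-sided, the smallest possible). Mural cell markers had 2 counts in the wild-type and 3 in the knockout libraries, which is too few to follow.

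The other members gave few counts. Wild-type libraries gave 12, 2 and 0 counts of Mylk, and knockout libraries 25, 11 and 3 (log2 fold change 0.98 ± 0.67, adjusted p = 0.282). For Tpm1 the wild type gave 2, 1 and 1 counts, the knockout 9, 6 and 2 (1.52 ± 0.93, adjusted p = 0.218). Both point the way they did in sections, with intervals that run from -0.34 to 2.29 and from -0.29 to 3.33. For Myl9 the wild type gave 8, 5 and 1 counts, the knockout 12, 11 and 3 (0.38 ± 0.71, adjusted p = 0.730), and Acta2 was at -0.20 ± 0.59 (adjusted p = 0.844). Tagln had 3 counts in each group, Cnn1 had 4 in the wild type and 2 in the knockout, Tpm2 had 1 in each, Actg2 had 1 in the wild type and 0 in the knockout, and Des had none in either; for these 5 no difference was detectable at this depth.

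Among the related genes, Ppp1r14a was again higher, by 2.27 ± 0.85 (adjusted p = 0.0310), and was the 1 of 12 tone genes called. Of the thin filament and adhesion list 2 of 8 rose, of the non-muscle paralogs 1 of 10 and of the other myoid genes 1 of 7, which was Cxcl12, by 3.58 ± 0.86 (adjusted p = 5.35e-04). Both regulators tested, Mrtfb and Klf4, fell, with 17 and 5 counts in the wild-type group against 5 and 0 in the knockout group, and neither was called with library size alone. The spermatocyte and spermatid markers took 20346 to 33399 CPM in the wild-type and 0 to 113 CPM in the knockout Leydig-targeted libraries, so wild-type libraries aimed at Leydig cells held germ cell transcripts; their part in these values was not tested. None of the 14 tested Sertoli genes was called in either direction.

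The remaining comparisons set Leydig-targeted libraries against entire sections within a genotype, and they share their libraries with the comparisons above. In the wild type none of the 5 tested members was called in edgeR's test or in DESeq2's, beside 3.22% of all tested genes called higher and 12.4% lower in edgeR's. None was at an unadjusted p under 0.05 in edgeR's test either, where 1536 of all 5182 genes were. Acta2, with 601, 298 and 0 CPM under Leydig light and 655, 318 and 529 CPM in sections, had a log2 fold change of -0.82 ± 0.53 (adjusted p = 0.282), and Myh11 of 0.36 ± 0.58 (adjusted p = 0.699). Actg2 had 1 count under Leydig light and 64 in sections, a ratio of 0.238 (exact 95% interval 0.00594 to 1.38), and with a minimum count of 3 its log2 fold change was -2.92 ± 1.19 (adjusted p = 0.0805). In that fit Actg2 and Acta2 (-1.17 ± 0.55, adjusted p = 0.134) were both under 0.05 before adjustment, as were 2999 of all 10094 genes. Myl9 took 146 to 186 CPM under Leydig light beside 68.7 to 143 CPM in sections. Tpm1 took 36.4 to 168 beside 12.1 to 30.01 CPM, from 4 counts under Leydig light. Neither overlapped, at log2 fold changes of 0.18 ± 0.64 and 0.44 ± 0.97 (minimum count 10). At this depth 1 count of Tpm1 lay above all sections in Leydig-targeted libraries 2 and 3 (37.2 and 168 CPM). The same held for 1 count of Myl9 in library 3 (168 CPM), so nothing is read from the lack of overlap. Mylk and Cnn1 overlapped, with pooled ratios of 1.99 and 8.71 (exact 95% intervals 1.05 to 3.50 and 1.87 to 34.3). Cnn1, Tagln, Tpm2 and Des had 4, 3, 1 and 0 counts under Leydig light, too few to follow. The members together took 1043 to 1345 CPM under Leydig light beside 612 to 1218 CPM in sections, with overlapping libraries.

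In the knockout the members took 1189 to 1315 CPM under Leydig light and 1905 to 2405 CPM in sections, without overlap, a pooled ratio of 0.596 (exact 95% interval 0.497 to 0.711). That direction depends on the scaling: the median log2 fold change of the 5 tested members was -0.85, and 0.36 with Sertoli scaling, where the median of all genes was 0.68. Per 100 counts of the Sertoli markers the members had 14.8 ± 4.77 counts under Leydig light and 11.1 ± 1.19 in sections (SD, n = 3), with overlapping libraries. Only Myh11 was called, beside 1.91% of all tested genes called higher and 3.53% lower. It went from 195, 222 and 329 CPM in sections to 18.9, 0 and 65.8 CPM, a log2 fold change of -3.87 ± 0.91 (adjusted p = 0.00236), which was -2.72 with Sertoli scaling (adjusted p = 0.0479) and -4.875 without knockout Leydig library 3. That call was lost without knockout Leydig library 2 (adjusted p = 0.0528) and with the library number as a block (adjusted p = 0.0847), though the pooled counts differ 13.0-fold (exact 95% interval 3.56 to 108). Acta2 had 264, 454 and 658 CPM under Leydig light and at least 834 CPM in each section, with a log2 fold change of -1.45 ± 0.52 (adjusted p = 0.0718). Tpm1 was at 131 to 170 CPM under Leydig light and 101 to 145 CPM in sections and Mylk at 197 to 472 and 273 to 322 CPM, so both overlapped, and Myl9 was at 197 to 277 against 322 to 410 CPM. In the knockout, Sertoli markers were also lower under Leydig light, in 5 of 14 tested genes.

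Whether the genotype difference itself depends on the lit area was tested as an interaction. No member passed in edgeR's test, where 0.328% of all tested genes did in either direction. At an unadjusted p under 0.05 there was 1 member, Myh11, beside 530 of all 5182 genes. Its interaction was -4.23 ± 1.13 (adjusted p = 0.0519), just over the threshold, and DESeq2 called it (adjusted p = 0.0369). Leaving out single libraries moved its adjusted p between 0.00222 and 0.197, so the call depends on which libraries are used. For Tpm1, Mylk, Myl9 and Acta2 the adjusted p was between 0.746 and 0.960, which does not show that their genotype differences are alike in the 2 areas.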

How the data were processed

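Per the labels, 10 µm testis sections were lysed and libraries made by photo-isolation chemistry. The authors deposited raw whole-number counts per gene and library. The tools named in the submitters' processing notes are HISAT2, featureCounts, Trim Galore and UMI-tools, on GRCm38, without versions or a strand setting. The 3 libraries of each group are 1 deposited sample, and library numbers come from the column names.

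Counts were tested with edgeR 4.0.16 in R 4.3.3 (robust quasi-likelihood test, scaling by the trimmed mean of M values, 12 libraries, 1 coefficient per group). The expression filter with a minimum count of 10 kept genes at 66.1 CPM or more in at least 3 libraries, which left 5182 genes. A gene was called where its Benjamini-Hochberg adjusted p was under 0.05. SE is the log2 fold change divided by the square root of F, and fold change intervals are 95% intervals from it. DESeq2 1.42.0 was an alternative. Alternatives were library size alone, scaling to the Sertoli list, no filter, a minimum count of 3, only the 2 groups compared, the library number as a block, and each library left out. The minimum count of 3 was planned, and its combinations with other settings, used for Actg2 and Tagln, were chosen after seeing the data. The fit was tested on simulated data in which all groups had the same composition apart from a small set of changed genes. That test does not bear on how these libraries should be scaled. Counting intervals are exact 95% intervals that cover counting error only.

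The members and gene lists were chosen with earlier results of these data known. All 10 members are named in the genotype comparisons and in the wild-type comparison of areas. For the knockout comparison of areas and the interaction, only the members that passed the expression filter are named. Of other lists, at most 4 called genes with the smallest p are named, and paralogs of the members. The called genes that fell in the list on smooth muscle tone are not reported here by name. Deviations from the group means correlated across genes between section libraries of the same number (0.243, 0.132 and 0.194), which by the rule used pairs them, though no label says so. Values are from the fit without a block except where a block is named. Between areas these correlations were 0.0560, 0.00807 and 0.0257 in the knockout. In the wild type they were -0.107, 0.0338 and 0.0493, so pairing between areas is not shown.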

Additional observations from a re-analysis of the deposited data

How the results depend on the processing

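Members called in knockout against wild-type sections were 3, and were 5 with library size alone, 0 with Sertoli scaling and 5 with only the 2 groups compared, of 6 tested there. In the Leydig-targeted genotype comparison 1 was called, and 0 with no filter (Myh11 adjusted p = 0.0664) and 0 with only the 2 groups compared, where Myh11 was not among the genes tested. In the knockout region comparison 1 was called, 2 with only the 2 groups compared and 0 with the library number as a replicate block (Myh11 -3.76, adjusted p = 0.0847). For the interaction 0 were called, 1 with library size alone (adjusted p = 0.00509) and 1 with DESeq2. The block changed no other member's call. Genes of the 13 related lists called higher in knockout sections were 54, and 18 with Sertoli scaling.

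Directions turned with Sertoli scaling for Acta2 (-0.73) and Myh11 (-0.81) in sections and Myl9 (-0.39) in Leydig-targeted libraries. They turned for Acta2 between genotypes under Leydig light with no filter (0.36) and library size alone (0.010), and for Tagln in sections with library size alone (0.24). Between areas in the wild type they turned with no filter for Myh11 (-0.37), Tpm1 (-0.28), Myl9 (-0.54) and Mylk (-0.26), and with a minimum count of 3 for Myh11 (-0.00080) and Myl9 (-0.18). Between areas in the knockout Tpm1 turned with no filter (-0.29) and a minimum count of 3 (-0.050), and the members' median turned with Sertoli scaling (0.36). No gene named here was called where it turned; the cause was not tested.

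Leaving out each of the 12 libraries gave 2 to 3 called members in sections, 1 in each Leydig-targeted genotype fit, 0 in each wild-type region fit, 0 to 2 in the knockout region fits and 0 to 1 for the interaction. Log2 fold changes ran from -0.82 to 0.57 for Acta2 and from -0.010 to 0.51 for Myl9 between genotypes under Leydig light, and from -0.18 to 1.15 for Myh11 between areas in the wild type. Depth limits what can be seen in the Leydig-targeted libraries.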

Other observations

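Beside the contractile genes, 2 genes from the lists stood out by their counts in entire sections; both were chosen after their values were seen and neither passed the filter of the test. Tead1, which encodes a TEAD factor that binds the CATTCC letters, had 20, 23 and 21 counts in knockout sections against 4, 1 and 0 in the wild type, 53.8 against 3.74 CPM pooled. Ttn, which encodes the giant spring protein of striated muscle, had 4, 1 and 1 counts in knockout sections against 25, 14 and 15 in the wild type, 5.04 against 40.4 CPM pooled, and the whole striated muscle list of 10 genes had 28 counts in the knockout and 71 in the wild-type group.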
